A study of Mus musculus with 6 samples.

Results

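The mRNAs of 8 maternal mRNA storage proteins were followed between the non-polysomal (NP) and polysomal (P) fractions of aged mouse oocytes. The members, *Ybx2*, *Zar1*, *Lsm14a*, *Lsm14b*, *Patl2*, *Pabpc1l*, *Igf2bp2* and *Igf2bp3*, were picked by name from the 25899 gene symbols of the deposited table, and all 8 were found once. The 6 libraries are 3 of AF NP and 3 of AF P (AF, aged females), from pools of 200 oocytes of CD1 mice aged 58 weeks (the study's methods name the strain ICR and give a different age). Each pool was lysed and gave both an NP and a P fraction, so the fractions share their oocytes. No source says which NP and P libraries come from the same pool, and the test of P against NP treats the libraries as unpaired. All donors had received 5 IU of pregnant mare serum gonadotropin, and all oocytes were cultured for 180 min without IBMX to pass nuclear envelope breakdown (NEBD) and then for 10 min with cycloheximide at 0.1 mg/ml. NP holds the gradient fractions with free RNA and single ribosomes and P those with polysomes, and no library of oocytes from young mice was analysed here. In pooled oocytes, fewer oocytes with an mRNA and less of it per oocyte cannot be told apart.

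A fully grown oocyte no longer transcribes its genome, and it lives on mRNA made during growth. Much of this mRNA is packed with RNA-binding proteins that hold it off the ribosome, keep it from decay and release it at set times of meiosis. YBX2, ZAR1, the LSM14 proteins, PATL2, PABPC1L and the IGF2BP proteins are parts of such particles. Their own mRNAs are maternal transcripts too, and the comparison of P with NP asks how these were placed on the gradient shortly after NEBD.

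Values are FPKM, fragments per kilobase of exon scaled to the mapped reads of the library, so levels can be compared between genes within a library, and a value is relative to the other RNA of that library. The depth that could be read back from the steps between low values lay between 163763 reads (AF P replicate 1) and 18096536 reads (AF NP replicate 2), an estimate, since between 56.3% and 62.5% of the low values came out whole. Genes listed above 0 numbered 9992 to 13514 in NP and 6247 to 9557 in P. The libraries were unlike each other also within a fraction. Over the genes tested, AF NP replicates 1 and 2 correlated at 0.829 and AF NP replicate 3 with them at 0.699 and 0.726, while the AF P replicates correlated at 0.606 to 0.684 (Pearson, log2 scale, across genes of shared libraries). All 14 oocyte markers looked for, among them *Zp3* and *Gdf9*, were present, and their summed FPKM spanned 12184 to 14870 in NP and 5294 to 16630 in P. Of 14 granulosa and cumulus markers, 7 were listed at 0 in all libraries, including *Amh*, *Fshr* and *Foxl2*. Others were present, with *Serpine2* at 131, 62.6 and 132 FPKM and *Cyp19a1* at 7.15, 22.5 and 104 FPKM in AF NP, and at 41.4, 71.8 and 16.5 FPKM and at 15.4, 0 and 0 FPKM in AF P. The 3 granulosa markers tested had log2 ratios of P over NP from -3.42 to -1.46, none past the threshold in limma and 1, *Cyp19a1*, at an unadjusted p under 0.05. The granulosa and cumulus sum was 92.5 to 263 FPKM in NP and 18.1 to 77.7 FPKM in P, and its part in the results was not tested. Of 8 blood markers in the table, 1 had a value above 0, in 1 library.

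*Zar1*, *Pabpc1l*, *Lsm14b* and *Ybx2* were among the most abundant mRNAs of these oocytes in both fractions. Ordered by their mean over the 6 libraries, the members were *Zar1* (737 FPKM), *Pabpc1l* (549), *Lsm14b* (428), *Ybx2* (228), *Igf2bp2* (91.5), *Patl2* (50.15), *Igf2bp3* (23.1) and *Lsm14a* (15.5). The NP means alone kept this order, while by the P means *Lsm14b* (272 FPKM) stood above *Pabpc1l* (218) and *Lsm14a* (11.2) above *Igf2bp3* (3.21). Without AF P replicate 2 the P means of *Lsm14a* and *Igf2bp3* were 6.22 and 0.0743 FPKM. The order of neighbours was loose. *Zar1* was above *Pabpc1l* in 3 of 6 libraries, *Pabpc1l* above *Lsm14b* in 3, *Lsm14b* above *Ybx2* in 4, *Igf2bp2* above *Patl2* in 4 and *Igf2bp3* above *Lsm14a* in 1. *Ybx2* was above *Igf2bp2*, and *Patl2* above *Igf2bp3*, in 5 of 6. Among the 10578 genes tested, *Zar1* stood between the percentiles 98.1 and 99.7 of every library, *Pabpc1l* between 96.7 and 99.2, *Lsm14b* between 93.5 and 99.3 and *Ybx2* between 91.4 and 97.4. *Lsm14a* stayed between 63.1 and 79.4. *Patl2* and *Igf2bp3* had wide spans, from 21.1 in AF P replicate 1, where both were listed at 0, to 91.8 and 90.6 in AF NP replicate 3.

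**Figure D1:**
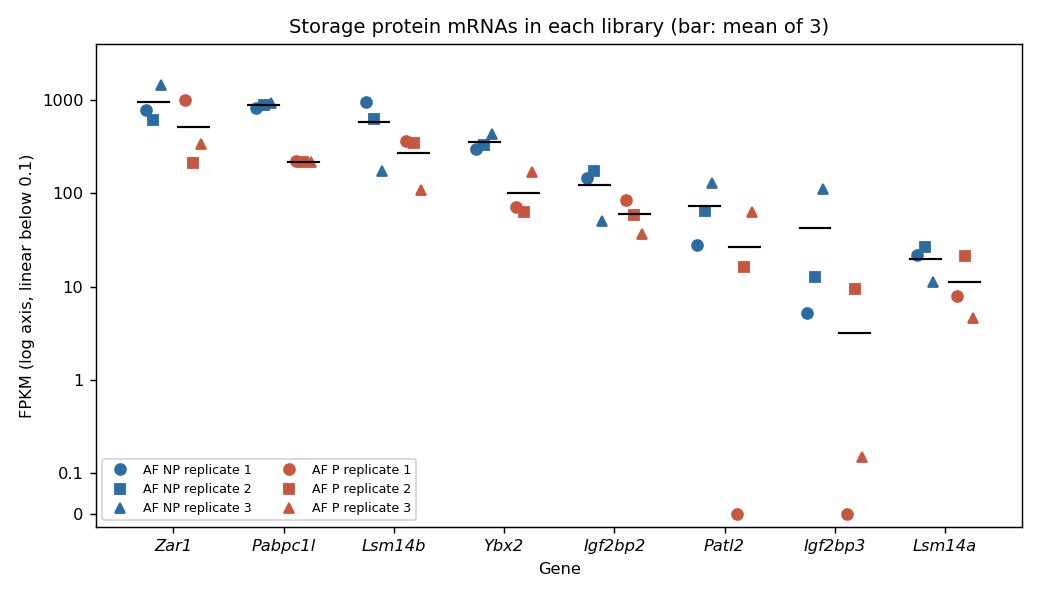
FPKM of each storage protein mRNA (log axis, linear below 0.1) in the 3 AF NP and 3 AF P libraries, 1 point a library, with a bar at the mean of 3. The NP and P points are apart for *Pabpc1l* and *Ybx2* and overlap for the other 6 genes, and *Patl2* and *Igf2bp3* are listed at 0 in AF P replicate 1.

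As deposited, all 8 mRNAs had a lower mean on the log scale in P than in NP, a direction shared by 80.1% of the 10578 genes tested. The ratio of P over NP ranged from -3.20 to -0.93 on the log2 scale, with a median of -1.51 over the members and of -1.03 over all genes tested. The deposited FPKM of all genes summed to 597300 to 633100 in the NP libraries and 246200 to 393900 in the P libraries. How far the level of a whole library is shifted depends on the scaling. Median-of-ratios rescaling, quantile normalization and a common FPKM sum moved the median of all genes to -0.43, 0.0027 and -0.50, and then 6, 5 and 8 of the 8 members had a ratio below 0. Ratios are therefore also given relative to the median of all genes. None of the 8 passed limma's test of P against NP at a Benjamini-Hochberg adjusted p of 0.1, which 1.82% of the genes tested passed. At an unadjusted p under 0.05 there were 3 of 8 (*Ybx2*, *Pabpc1l* and *Igf2bp3*), beside 15.8% of all genes tested, and 0 of 8 under each of the 3 rescalings, where 804, 762 and 757 of all genes had such a p (limma). In *Ybx2* and *Pabpc1l*, 2 of 8, every P library lay below every NP library, as it did for 23.2% of all genes tested. Leaving out AF P replicate 3 brought 2 members past the threshold, *Pabpc1l* (adjusted p = 0.0962) and *Ybx2* (adjusted p = 0.0918), with limma, beside 331 of 10568 genes tested. With the filter of all 6 libraries kept, which tests slightly different genes, their adjusted p was 0.168 and 0.150 with limma.

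**Figure D2:**
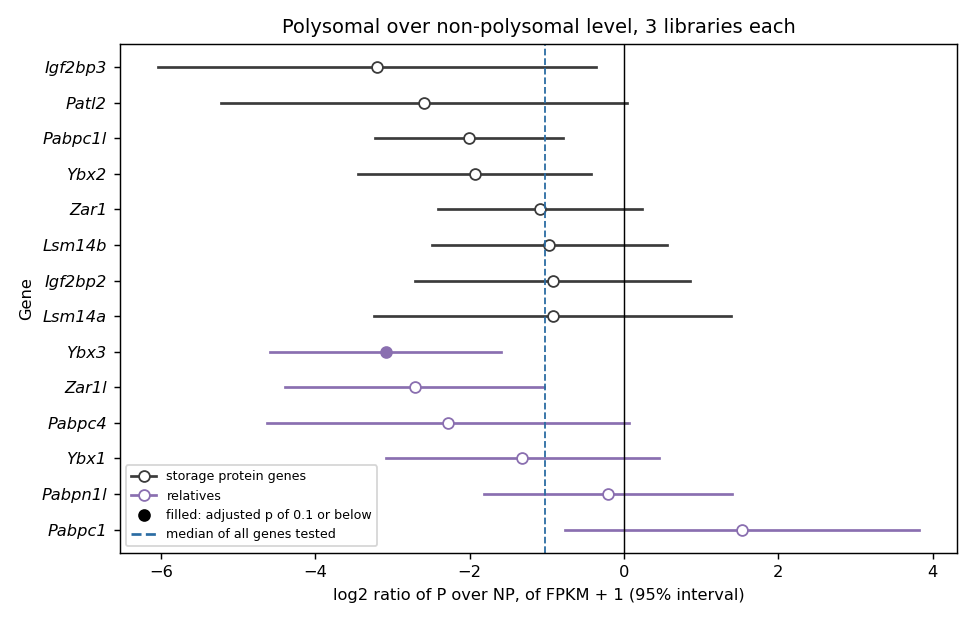
Log2 ratio of P over NP of FPKM + 1 from limma, with its 95% interval, for the 8 storage protein genes and the 6 relatives tested, 3 libraries a fraction. Filled points have an adjusted p of 0.1 or below, which *Ybx3* alone has here, and the dashed line is the median of all genes tested, -1.03. Under quantile normalization *Lsm14a*, *Lsm14b*, *Igf2bp2* and *Pabpn1l* lie above 0 too, beside *Pabpc1*, and under median-of-ratios rescaling *Lsm14b*, *Igf2bp2* and *Pabpn1l* do, as *Pabpn1l* does with a common FPKM sum.

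PABPC1L is the poly(A)-binding protein of oocytes and early embryos, which takes the place of the somatic PABPC1 on the poly(A) tails of maternal mRNA. *Pabpc1l* (chromosome 2, 164025450 to 164050538, plus strand, GRCm38) measured 830, 884 and 928 FPKM in replicates 1, 2 and 3 of AF NP, and 219.6, 217.7 and 216.6 FPKM in AF P. It was the most even of the members within a fraction, and the groups did not overlap. The means were 881 ± 49.1 and 218 ± 1.53 FPKM (SD, n = 3 each), a 4.04-fold difference in FPKM as deposited. The P values rest on 98, 677 and 914 recovered reads, and their exact Poisson intervals of 95% were 178 to 268, 202 to 235 and 203 to 231 FPKM, so the 3 P values differed by less than counting error. The log2 ratio was -2.01 (standard error, SE, 0.59, with a 95% interval from -3.23 to -0.79, an unadjusted p of 0.00242 and an adjusted p of 0.113 in limma), which is -0.98 when the median of all genes is taken off. With a common FPKM sum the log2 ratio was -1.08 (limma adjusted p = 0.691). Asking for a mean above 5 FPKM, with the fit run anew on these genes, gave an adjusted p of 0.0943 with limma. In that fit 210 of 7396 genes tested passed the threshold.

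YBX2, also called MSY2, is a germ cell Y-box protein that coats maternal mRNA broadly and keeps it stable and untranslated. *Ybx2* (chromosome 11, 69935796 to 69941605, plus strand) measured 299, 333 and 435 FPKM in AF NP, and at 71.2, 62.7 and 168 FPKM in AF P. The groups did not overlap, and AF P replicate 3 was the highest of its fraction. The means were 356 ± 70.6 and 101 ± 58.7 FPKM (SD, n = 3 each), with the P values resting on 22, 135 and 492 recovered reads. The log2 ratio was -1.94 (SE 0.73, limma adjusted p = 0.203), or -0.90 with the median of all genes taken off.

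ZAR1, named for the arrest of zygotes that lack it, binds maternal mRNA and helps to gather it in stores around mitochondria. *Zar1* (chromosome 5, 72577114 to 72581084, minus strand) was at 783, 618 and 1458 FPKM in AF NP, and at 1013, 211 and 338 FPKM in AF P. The highest P value lay above both of the lower NP values, so the fractions overlapped, and the P mean of 521 ± 431 FPKM (SD, n = 3) was 274.6 without AF P replicate 1. The log2 ratio was -1.09 (SE 0.64, limma adjusted p = 0.3999), within 0.1 of the median of all genes (-0.062). Leaving out 1 library gave values between -1.73 (without AF P replicate 1) and -0.60 (without AF P replicate 2).

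LSM14A and LSM14B belong to the RAP55 family, which works with the helicase DDX6 in repressing mRNA, and LSM14B is the form that prevails in oocytes. *Lsm14b* (chromosome 2, 180024987 to 180035465, plus strand) measured 959, 620 and 173 FPKM in AF NP, and at 361, 346 and 109.6 FPKM in AF P. Replicate 3 was the lowest of each fraction, and AF NP replicate 3 lay below AF P replicates 1 and 2. The log2 ratio was -0.97 (SE 0.73, limma adjusted p = 0.493), and with a library left out it lay between -1.68 (without AF NP replicate 3) and -0.41 (without AF P replicate 3). *Lsm14a* (chromosome 7, 34344646 to 34389540, minus strand) was at 21.6, 26.5 and 11.1 FPKM in AF NP, and at 7.87, 21.2 and 4.57 FPKM in AF P. Its fractions overlapped, and its log2 ratio was -0.93 (SE 1.12, limma adjusted p = 0.655), between -1.48 (without AF P replicate 2) and -0.48 (without AF P replicate 3) with a library left out. Of its annotated exon bases, 454 also lie in exons of genes on the other strand, whose reads cannot be told apart unless strand was counted.

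PATL2 is the oocyte form of the PAT1 repressors, which join the decapping machinery and DDX6 on silenced mRNA. *Patl2* (chromosome 2, 122120108 to 122186189, minus strand) was at 27.5, 64.3 and 129.5 FPKM in AF NP. AF P replicate 1 listed it at 0, a depth at which 3 reads make 7.53 FPKM. AF P replicates 2 and 3 gave 16.2 and 63.4 FPKM, on 45 and 239 recovered reads. Replicate 3 was the highest of each fraction, and the groups overlapped. The log2 ratio was -2.59 (SE 1.27, limma adjusted p = 0.322), and lay between -3.91 (without AF P replicate 3) and -0.91 (without AF P replicate 1, where it was listed at 0) with a library left out.

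The IGF2BP proteins bind mRNA through KH domains and protect it from decay. *Igf2bp2* (chromosome 16, 22059009 to 22163299, minus strand) was at 145, 174 and 50.4 FPKM in AF NP, and at 83.9, 59.2 and 36.4 FPKM in AF P. AF NP replicate 3 lay among the P values, and the log2 ratio was -0.93 (SE 0.86, limma adjusted p = 0.560), between -1.47 (without AF NP replicate 3) and -0.59 (without AF NP replicate 2) with a library left out. *Igf2bp3* (chromosome 6, 49085221 to 49214954, minus strand) was at 5.21, 12.5 and 111 FPKM in AF NP, and at 0, 9.48 and 0.149 FPKM in AF P. A single library, AF NP replicate 3, set its NP mean of 42.9 FPKM, which was 8.86 without it. In AF P replicate 1, 3 reads of *Igf2bp3* make about 2.25 FPKM at the annotated exon length, which gave whole reads for this gene in only 2 of 6 libraries and may not be the length the authors used. The log2 ratio was -3.20 (SE 1.37, limma adjusted p = 0.270), and lay between -4.30 (without AF P replicate 2) and -1.998 (without AF NP replicate 3) with a library left out. *Igf2bp3* shares 1529 exon bases with *Malsu1*, a gene on the other strand, so part of its reads may be counted for either gene.

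Relative to the median of all genes, *Ybx2*, *Pabpc1l* and *Igf2bp3* stayed below 0 under every setting tried, from -1.44 to -0.22, from -1.47 to -0.28 and from -3.25 to -0.65. *Patl2* ranged from -2.98 to 0.13. The other 4 members lay near the median, with *Zar1* from -0.70 to 0.63, *Lsm14b* from -0.44 to 0.76, *Igf2bp2* from -0.37 to 0.79 and *Lsm14a* from -0.34 to 0.72. As deposited, the ratios of *Ybx2*, *Pabpc1l* and *Igf2bp3* stood at the percentiles 22.3, 20.7 and 4.99 of all genes tested. How many of all genes stayed below the median under every setting was not counted.

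The ends of the members' mRNAs are shown because a stored mRNA is woken in oocytes mainly through its 3′ end, where the hexamer AATAAA or ATTAAA directs polyadenylation and the cytoplasmic polyadenylation element, here the letters TTTTAT or TTTTAAT, is bound by CPEB1. The last 150 bases of 1 coding transcript per gene (GENCODE M21, GRCm38) were searched on the transcript strand. The element was found in 2 of 8 members, *Ybx2* and *Lsm14a*, beside 21.3% of 21747 protein-coding genes, and a hexamer in 6 of 8 beside 75.6%. The 30 bases shown for *Ybx2* (chr11:69941532-69941561, plus strand) and *Lsm14a* (chr7:34344661-34344690, minus strand) hold the element, followed in *Lsm14a* by a hexamer 18 bases downstream. Those of *Zar1* (chr5:72577117-72577146, minus strand), whose 3′ UTR of 146 bases was the shortest of the 8, and *Pabpc1l* (chr2:164050505-164050534, plus strand) hold a hexamer and no element. Capitals mark the letters searched for.
Ybx2: cctctgaagccaTTTTATgaactgtcatgt
Lsm14a: tgtTTTTAATaaaggccatggAATAAAgag
Zar1: ataaagcctgtgAATAAAaggtattgcaaa
Pabpc1l: tttgctttatatATTAAAaaatgctgcaaa
In *Lsm14a* the TTTTAAT also runs into an AATAAA of its own. The members with the element, *Ybx2* and *Lsm14a*, had log2 ratios of P over NP of -1.94 and -0.93. The 6 without it spanned -3.20 to -0.93. A match describes these letters and not a site in use.

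The members were set beside 8 relatives from the same gene families. *Ybx3*, listed under its older symbol *Csda*, encodes another Y-box protein and was the only gene of this list past the threshold (1 of 6 tested lower in P and 0 higher, beside 1.8% and 0.0189% of all genes tested). It was at 366, 857 and 1021 FPKM in AF NP, and at 49.2, 65.4 and 156 FPKM in AF P. The groups were apart, with a log2 ratio of -3.09 (SE 0.72, limma adjusted p = 0.0496) and of -2.06 relative to the median of all genes. Without AF NP replicate 1, 2 or 3 its adjusted p was 0.257, 0.320 and 0.165 with limma. Under median-of-ratios rescaling, quantile normalization and a common FPKM sum its log2 ratio was -2.09, -2.16 and -2.16. The adjusted p was then 0.651, 0.542 and 0.456 with limma, short of the threshold each time. *Zar1l*, the partner gene of *Zar1*, was at 438, 249 and 579 FPKM in AF NP, and at 122.8, 88.1 and 19.5 FPKM in AF P, also with no overlap. Its log2 ratio of -2.71 (standard error 0.81) fell short of the threshold at an adjusted p of 0.115 with limma, which it passed without AF P replicate 1 (-3.23, adjusted p = 0.0677, or 0.207 with the filter of all 6 libraries kept). Without AF P replicate 3 it was -1.93 (limma adjusted p = 0.188). *Pabpc4*, a cytoplasmic poly(A)-binding protein gene, was at 27.9, 50.4 and 19.4 FPKM in AF NP and 4.55, 15.2 and 1.92 FPKM in AF P. Its adjusted p was 0.330 with limma. In *Ybx3*, *Zar1l* and *Pabpc4*, 3 of the 6 relatives tested, every P library lay below every NP library, as it did for 23.2% of all genes tested.

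*Pabpc1*, *Patl1* and *Igf2bp1* were the lowest of the relatives. *Pabpc1*, the somatic counterpart of *Pabpc1l*, was at 1.401, 0.335 and 0 FPKM in AF NP, and at 0, 6.68 and 9.06 FPKM in AF P. It was near 0 in NP, while in AF P replicate 3 it lay above *Lsm14a*. Its log2 ratio was 1.53 (SE 1.11, limma adjusted p = 0.476), between 0.91 (without AF P replicate 3) and 2.58 (without AF P replicate 1) with a library left out. *Patl1* reached 1.04 FPKM in AF P replicate 2 and at most 0.391 FPKM elsewhere. *Igf2bp1* was listed at 0 in all 6 libraries, where at its annotated exon length 3 reads make 1.89 FPKM in AF P replicate 1, the shallowest, and 0.0171 FPKM in AF NP replicate 2, the deepest. *Ybx1*, the widely expressed Y-box gene, was at 170.8, 234 and 78.5 FPKM in AF NP and 45.8, 131 and 32.4 FPKM in AF P. *Pabpn1l*, an oocyte gene for a poly(A)-binding protein of another kind, was at 343, 145 and 117.9 FPKM in AF NP and 117.0, 91.6 and 351 FPKM in AF P, with a log2 ratio of -0.21 (standard error 0.78) that was 0.78 under median-of-ratios rescaling. *Ybx1* and the poly(A)-binding protein genes have close copies elsewhere in the genome, and how reads shared with copies were counted is not stated.

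**Figure D3:**
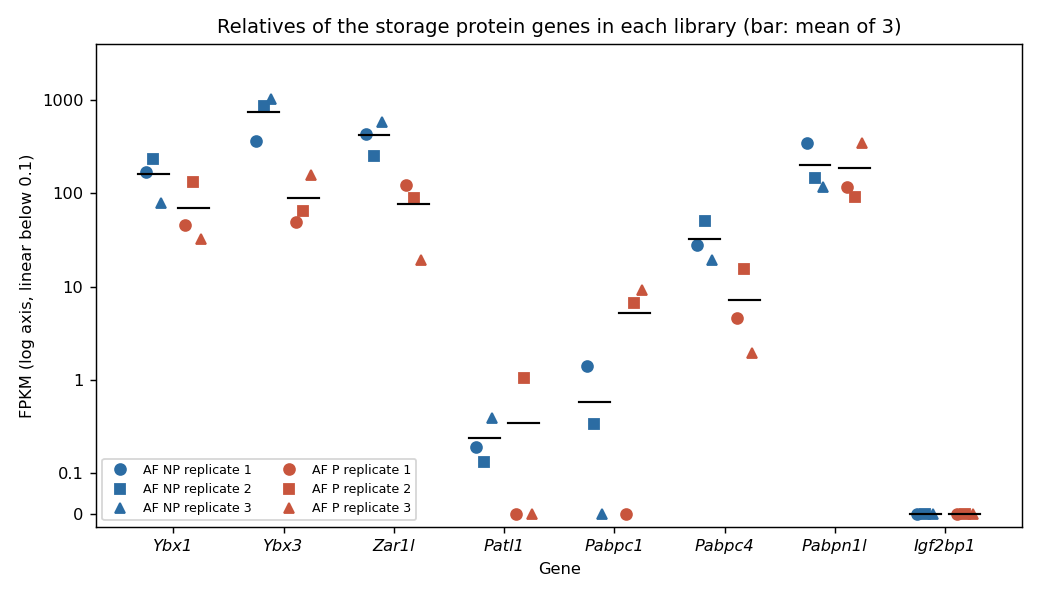
FPKM of the 8 relatives (log axis, linear below 0.1) in the 3 AF NP and 3 AF P libraries, 1 point a library, with a bar at the mean of 3. *Ybx3*, *Zar1l* and *Pabpc4* have every P point below every NP point, as do 23.2% of all genes tested. *Patl1* and *Igf2bp1* lie near or at 0 in all libraries, and *Pabpc1* reaches 6.68 FPKM in AF P replicate 2, 9.06 FPKM in AF P replicate 3 and at most 1.401 FPKM elsewhere.

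A ratio of FPKM of a pair of genes within a library does not depend on how the library was scaled, whereas a ratio of FPKM + 1, used for the test, does where a gene is low. *Lsm14b* exceeded *Lsm14a* in all 6 libraries, by 15.6-fold to 45.9-fold. *Zar1* exceeded *Zar1l* in all 6, by 1.79-fold, 2.48-fold and 2.52-fold in AF NP and 8.25-fold, 2.39-fold and 17.4-fold in AF P. *Ybx2* exceeded *Ybx1* in 5 of 6, the exception being AF P replicate 2. *Pabpc1l* was above *Pabpc1* in all 6. *Patl2* was above *Patl1* in 5 of 6, with both at 0 in AF P replicate 1. *Igf2bp3* was above *Igf2bp2* in 1 of 6, AF NP replicate 3, where the ratio was 2.20.

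The change of these log2 ratios from NP to P was tested over the 6 pairs with a two-sided exact permutation test, whose smallest possible p is 0.1 with 3 libraries against 3. For *Pabpc1l* over *Pabpc1* the fractions did not overlap, and the log2 ratio was 3.54 lower in P (difference -3.54, standard error 1.14, exact permutation p = 0.1, adjusted over the 6 pairs 0.6), with *Pabpc1* listed at 0 in AF NP replicate 3 and in AF P replicate 1, so that the pseudocount sets the ratio there. With a pseudocount of 0.1 the difference was -4.20 (exact permutation p = 0.3) and the fractions overlapped. For *Zar1* over *Zar1l* the difference was 1.62 (standard error 0.83, exact permutation p = 0.3), between 0.98 (without AF P replicate 3) and 2.39 (without AF P replicate 2) with a library left out. For *Patl2* over *Patl1* and *Igf2bp3* over *Igf2bp2* it was -2.63 and -2.28 (exact permutation p = 0.3 and 0.4). Leaving out 1 library moved the first between -4.12 (without AF P replicate 3) and -1.12 (without AF P replicate 1), and the second between -3.37 (without AF NP replicate 1) and -0.53 (without AF NP replicate 3). For *Ybx2* over *Ybx1* and *Lsm14b* over *Lsm14a* it was -0.62 and -0.041 (exact permutation p = 0.6 and 0.9), with standard errors of 1.15 and 0.61. With a smallest p of 0.1 the adjusted p of a pair cannot go below 0.1, so these tests do not show that the ratios were alike in NP and P.

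**Figure D4:**
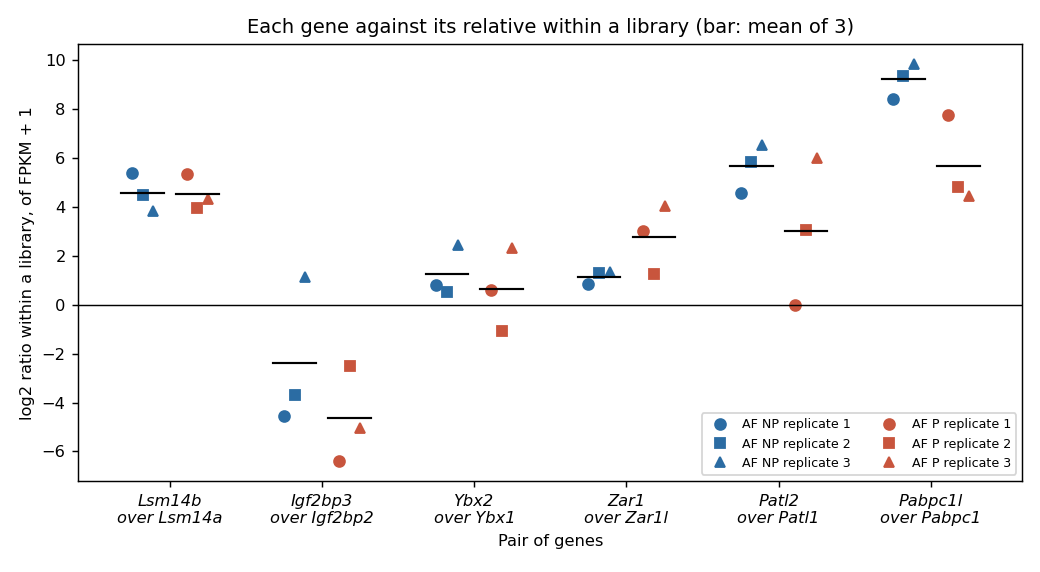
Log2 ratio of FPKM + 1 between a storage protein gene and its relative within each library, 3 AF NP and 3 AF P, with a bar at the mean of 3. *Lsm14b* over *Lsm14a* lies near 4.5 in both fractions, and *Pabpc1l* over *Pabpc1* is lower in every P library than in every NP library at this pseudocount of 1, though not with 0.1.

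Of 25 other genes for proteins of stored and repressed mRNA, 24 were tested and none passed the threshold in limma in either direction, while 2 (*Eif4e1b* and *Fxr2*) had an unadjusted p under 0.05. Their log2 ratios had a median of -1.16, with 19 below 0 and 5 above, and in 7 of 24 every P library lay below every NP library. Over all genes tested 15.8% had an unadjusted p under 0.05, the median was -1.03, 80.1% had a ratio below 0, and 23.2% had every P library below every NP library. *Eif4e1b*, the oocyte cap-binding protein that joins CPEB1 complexes, was at 148, 334 and 373 FPKM in AF NP and 16.2, 64.5 and 136.5 FPKM in AF P, with a log2 ratio of -2.30 (SE 0.86, limma adjusted p = 0.201). The ratio lay between -2.98 (without AF P replicate 3, adjusted p = 0.0687, or 0.174 with the filter of all 6 libraries kept) and -1.48 (without AF P replicate 1, adjusted p = 0.463) in limma. *Cpeb1*, which encodes the protein that binds the element searched for above, was at 73.8, 220.1 and 398 FPKM in AF NP and 122.3, 107.2 and 189 FPKM in AF P, a log2 ratio of -0.46 (standard error 0.78) that was 0.53 under median-of-ratios rescaling. *Eif4enif1*, the gene of the 4E-T repressor, was at 97.7, 81.2 and 27.7 FPKM in AF NP and 44.1, 49.4 and 12.4 FPKM in AF P. *Ddx6*, the gene of the helicase with which LSM14 and PAT1 proteins work, was low in all libraries, at 2.13, 1.49 and 4.30 FPKM in AF NP and 8.05, 8.38 and 0 FPKM in AF P.

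The tested genes whose log2(FPKM + 1) most resembled the mean of the members over the 6 libraries, among 4828 with a mean above 10 FPKM, were *Gulo*, *Mrps18a*, *Gatad2a*, *Eif3f* and *Plxna4*, with Pearson correlations of 0.998, 0.996, 0.995, 0.994 and 0.994. With 6 points that fall in 2 fractions and share their libraries, this is a description only. *Gatad2a*, for example, was at 51.0, 59.9 and 78.3 FPKM in AF NP and 14.4, 25.3 and 18.1 FPKM in AF P. Pairs of members were not picked for their likeness, so their correlations cannot be set against those of these best matches. *Lsm14b* and *Igf2bp2* had a correlation of 0.934 and *Ybx2* and *Pabpc1l* one of 0.903, while that of *Lsm14b* and *Patl2* was -0.241. *Lsm14b* and *Igf2bp2* were both at their lowest in replicate 3 of each fraction, and *Patl2* at its highest there.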

How the data were processed

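Trimming by the authors used Trim Galore 0.4.1, and the reads were mapped to GRCm38 with HISAT2 2.0.5 (versions per the submitters' processing notes) and turned into the deposited FPKM per gene in Seqmonk. Not given in the sources used here are the annotation, the strand setting and the filters on reads. Libraries were ribodepleted and made by whole transcriptome amplification, so reads are not independent molecules, and intervals and limits in reads cover counting error only. The deposited mean of each fraction was not used.

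Of 25965 rows, 58 symbols were duplicated, and the row with the highest mean was kept. Depth was estimated with GENCODE M21 exon lengths (87.5% of symbols) as the number making most low values, up to 20 reads, whole within 0.02 reads. These lengths gave whole reads (within 0.05) in all 6 libraries for *Ybx2*, *Patl2* and *Pabpc1l* and in 5 for *Lsm14b*, but in 3, 0, 1 and 2 of 6 for *Zar1*, *Lsm14a*, *Igf2bp2* and *Igf2bp3*, whose lengths are doubtful. The test of P against NP used limma 3.58.1 (R 4.3.3) on log2(FPKM + 1), which understates changes of low genes, with a mean-variance trend, for genes with a mean above 1 FPKM in either fraction, two-sided, with Benjamini-Hochberg adjustment and a threshold of 0.1. The script was tested on simulated data. Nothing says in words that libraries of a fraction come from separate animals, so p-values measure the spread between these libraries. Pair ratios used SciPy 1.17.1 in Python 3.11.15.

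Named were the members, their relatives, *Ddx6*, *Cpeb1*, *Eif4enif1* and *Eif4e1b*, other storage genes past the threshold, and the 5 genes most like the members. *Fxr2*, *Malsu1*, *Serpine2* and *Cyp19a1* were named after their values were seen. Members, lists and tests were chosen with earlier results of these data known. Alternatives were pseudocounts of 0.1 and 5, filters, 3 rescalings, no trend, a threshold of 0.05, a replicate block and each library left out, the last also with the filter of all 6 libraries kept, which was chosen after seeing the data.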

Additional observations from a re-analysis of the deposited data

How the results depend on the processing

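Genes past the threshold numbered 192 (190 lower in P, 2 higher). A pseudocount of 0.1 gave 69, no filter 0 (with 1759 at an unadjusted p under 0.05), no trend 15, the threshold of 0.05 gave 65, and rescaling by median of ratios, by quantiles and to a common sum gave 3, 4 and 6, of which 2, 2 and 2 were higher. It was 4, 12 and 1 without AF NP replicate 1, 2 or 3 and 331 without AF P replicate 3. With a library left out and the filter of all 6 kept it was 55 without AF P replicate 3 and 0 without each other library (limma, 1088 to 2387 at an unadjusted p under 0.05), so over all of these it ranged from 0 to 331, and that of the members from 0 to 2. The members past the threshold were 0 in all settings except a mean above 5 FPKM (1, *Pabpc1l*), the replicate block (1, *Pabpc1l*, adjusted p = 0.0701 with limma) and without AF P replicate 3 with the filter set anew (2). With a mean above 5 FPKM, 210 of 7396 genes tested passed. The cause of these differences was not tested.

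The replicate block, fitted to all genes tested, gave 668 genes, with *Zar1l* (adjusted p = 0.0613) and *Gulo* (0.0412) past the threshold beside *Pabpc1l* (limma). Calls were compared for the members, the relatives tested, *Ddx6*, *Cpeb1*, *Eif4enif1*, *Eif4e1b* and the 5 genes most like the members, and no other call among them moved. Each lysate gave both fractions, but no source says that equal numbers mark the same lysate, and deviations of libraries with one number correlated at 0.0634, 0.0991 and 0.116, each more than with the other numbers but not all over 0.1, so the numbers were not taken to pair the libraries. For the pair ratios the block keeps each difference by construction, for example 1.62 for *Zar1* over *Zar1l*, and gave exact permutation p from 0.25, the smallest that 3 pairs allow, to 0.75.

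Some ratios changed sign. *Igf2bp2* and *Lsm14b* were at 0.061 and 0.031 under median-of-ratios rescaling and, with *Lsm14a*, at 0.080, 0.067 and 0.29 under quantile normalization. *Cpeb1* was at 0.53, 0.61 and 0.47 and *Pabpn1l* at 0.78, 0.73 and 0.72 in the 3 rescalings in that order, and *Eif4enif1* at 0.11 under quantile normalization. *Ddx6*, at 0.35, was at -0.39 with a pseudocount of 0.1. With a library left out, *Cpeb1* ranged from -1.12 to 0.084, *Pabpn1l* from -0.79 to 0.25 (0.17 without AF P replicate 2) and *Ddx6* from -0.20 to 1.42 (-0.17 without AF P replicate 1). *Lsm14b* over *Lsm14a* was 0.039 with a pseudocount of 0.1 and ranged from -0.45 to 0.37 with a library left out, and *Ybx2* over *Ybx1* from -1.47 to 0.23. None of these had passed a test. *Ybx3* kept its direction in 22 alternatives and fell short of the threshold in 13, with adjusted p from 0.0121 to 0.651 (limma). Of the members with a hexamer or element in the last 150 bases, the counts were 6 and 2, in the last 100 bases 6 and 2, and in the last 500 bases 7 and 3. *Patl2* and *Igf2bp3* were each listed at 0 in the shallowest library.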
